A study of Mus musculus with 12 samples.

Results

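Mst1r and Met encode RON and MET, the only members of one family of receptor tyrosine kinases, and Mst1 and Hgf encode their ligands. Their transcripts were followed in whole mouse adrenals with and without a stabilized β-catenin in the cells of the zona glomerulosa (zG), the outer, aldosterone-producing layer of the cortex. The genes were taken by name from the deposited table, 4 of the 39017 genes counted. Mst1r was selected on its higher level in the same comparison of genotypes that is described here, and Met, Mst1 and Hgf were added as its relatives, so the genotype values of all 4 are given as a description with no test.

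RNA was sequenced from 12 adrenals of 10- to 11-week-old female mice on a mixed sv129-C57Bl/6 background. The 6 controls (Ctrl) carried ASCre/+, in which Cre recombinase is expressed from the aldosterone synthase (Cyp11b2) locus and thus in zG cells. The 6 βCat-GOF mice carried ASCre/+ together with Ctnnb1fl(ex3)/+, a β-catenin allele from which Cre removes exon 3, the exon that holds the residues marked for degradation. Both groups therefore carry the Cre knock-in, and the change in β-catenin is limited to cells that have expressed Cre and cells derived from them. The paper cites lineage tracing in which zG cells migrate into the layer beneath. The RNA comes from the entire gland trimmed of fat. In such bulk samples, fewer cells of a type and less RNA per cell cannot be told apart. Libraries held 14090378 to 25625494 gene counts in Ctrl and 13484675 to 24951480 in βCat-GOF. Ctnnb1, the targeted gene, had 21397 ± 1151 normalized counts in βCat-GOF and 21625 ± 858 in Ctrl (SD, n = 6 each, log2 fold change -0.02, SE 0.08), and counts over the gene do not show the loss of 1 exon. The labels 1369-2ear and 1369-2 share a stem among the βCat-GOF samples, as do 1367-1-2 and 1367-1, and 1367-5-2 and 1367-5, among the Ctrl samples, and the labels do not say whether such a pair is 1 animal, so p-values measure the spread between these 12 libraries. Label families also follow genotype, since all Ctrl labels begin with 1367 and the βCat-GOF labels begin with 1369 or 1387, and label family and genotype cannot be told apart.

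RON and MET are made as single chains that are cleaved into an extracellular α chain and a membrane-spanning β chain with the kinase. MET is switched on by hepatocyte growth factor (HGF), which is made mainly by mesenchymal cells, and RON by macrophage-stimulating protein (MSP, the product of Mst1), which is made mainly in the liver and circulates as a precursor. Both ligands resemble plasminogen and become active once a serine protease has cut them. The activated receptors dock GAB1, GRB2 and phosphatidylinositol 3-kinase and drive scattering, survival and branching of epithelial cells, and RON is also found on resident macrophages. In the mouse, Mst1r is known as the Fv2 locus, at which inbred strains differ in the making of a short form of the receptor that starts inside the gene. Counts summed over a gene do not separate the long from the short form.

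The gene Mst1r (ENSMUSG00000032584) lies on the plus strand of chr9:107906873-107920383 (GRCm38), with 18 separate exon blocks and 5007 bases of exon in all. Mst1 (ENSMUSG00000032591) lies on the same strand of chr9:108080436-108085003, 160 kb beyond the end of Mst1r. Met (ENSMUSG00000009376) is on the plus strand of chr6:17463800-17573980, and Hgf (ENSMUSG00000028864) on the plus strand of chr5:16553495-16620152. The targeted gene Ctnnb1 is also on chromosome 9, 13.01 Mb beyond Mst1r. No other annotated gene overlapped an exon of Mst1r or Met, whereas 8.62% of the exon bases of Mst1 also belong to Rnf123 on the opposite strand and 6.74% of those of Hgf belong to Gm43489. No other gene held a copy of 10% or more of any of the 4 at 95% identity or above.

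The promoter of Mst1r is shown because its transcript was the one that was higher in every βCat-GOF mouse, and β-catenin acts on genes through TCF and LEF proteins, whose core letters are CTTTGA. Sequences are those of RefSeq on GRCm38.p6, each running from 250 bases before to 50 bases after an annotated start and printed on the gene's own strand. RefSeq lists a start at the beginning of Mst1r (chr9:107906639-107906938) and another inside the gene (chr9:107914753-107915052). The window of the neighbouring gene Camkv (chr9:107935670-107935969), which is described further on, is printed beside them. Capitals mark CTTTGA or its reverse complement TCAAAG.
Mst1r, first start: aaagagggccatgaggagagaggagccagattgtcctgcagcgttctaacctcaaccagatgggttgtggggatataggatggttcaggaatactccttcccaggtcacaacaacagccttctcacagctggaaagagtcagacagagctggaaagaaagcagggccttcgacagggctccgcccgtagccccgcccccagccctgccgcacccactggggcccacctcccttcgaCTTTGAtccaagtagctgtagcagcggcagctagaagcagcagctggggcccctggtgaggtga
Mst1r, start inside the gene: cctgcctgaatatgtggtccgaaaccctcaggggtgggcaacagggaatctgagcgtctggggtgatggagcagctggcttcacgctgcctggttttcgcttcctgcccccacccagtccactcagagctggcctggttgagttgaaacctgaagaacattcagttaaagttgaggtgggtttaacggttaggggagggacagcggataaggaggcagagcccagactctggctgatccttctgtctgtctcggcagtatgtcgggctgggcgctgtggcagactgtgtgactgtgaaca
Camkv: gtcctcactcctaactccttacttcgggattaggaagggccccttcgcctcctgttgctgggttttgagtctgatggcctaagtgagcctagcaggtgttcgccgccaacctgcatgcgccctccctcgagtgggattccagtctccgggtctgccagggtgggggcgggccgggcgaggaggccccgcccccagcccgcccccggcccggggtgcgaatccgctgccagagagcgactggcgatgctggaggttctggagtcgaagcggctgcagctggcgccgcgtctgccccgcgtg

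The window at the first start of Mst1r held 1 match, which began 14 bases before the RefSeq start. In the annotation that gave the gene positions above, Mst1r starts earlier, at chr9:107906873, and the match falls just inside the gene. The letters CTTTGA or TCAAAG, searched on both strands after the sequences had been read, were present in 5257 of 32851 such windows (16.0%). The longer form CTTTGAT or ATCAAAG, which contains the shorter one and which the match in Mst1r also spells, was present in 1225 windows (3.73%). The start inside Mst1r, the windows of Met, Mst1 and Hgf, and those of Camkv, Traip and the Wnt target Axin2 held no match to the shorter form. A match describes letters in a window and was not tested as a binding site.

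Mst1r, the MSP receptor, ranged from 99.8 to 302 normalized counts in Ctrl (median 250) and from 388 to 1428 in βCat-GOF (median 543). All 6 βCat-GOF mice lay above all 6 Ctrl mice, and the groups did not overlap. The means were 222 ± 74.4 and 775 ± 466 (SD, n = 6 each), a ratio of 3.49, and the fitted log2 fold change was 1.80 with a standard error of 0.37. The βCat-GOF mice were also more spread out, with a coefficient of variation of 60.2% against 33.5% in Ctrl. A pair of them, 1369-2ear with 1428 and 1369-2 with 1309 normalized counts, stood apart from the other 4, which lay between 388 and 593. Without this pair the log2 fold change was 1.09 (SE 0.25). Leaving out each mouse in turn gave log2 fold changes of 1.54 to 1.93.

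Met, the HGF receptor, ranged from 44.7 to 86.1 normalized counts in Ctrl (median 70.0) and from 41.1 to 189 in βCat-GOF (median 72.2). The groups overlapped, and 5 of the 6 βCat-GOF mice lay within or below the Ctrl range. The log2 fold change of 0.32 (SE 0.30) rested on 1 mouse, 1369-4, and was -0.08 (SE 0.21) without it.

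Hgf, the ligand of MET, ranged from 38.3 to 62.5 normalized counts in Ctrl (median 50.7) and from 28.6 to 66.5 in βCat-GOF (median 34.5). In βCat-GOF, 5 of 6 mice lay below the whole Ctrl range, and the mouse 1369-2ear lay above it. The share of all genes with such a pattern was not counted, so nothing is read from it. The log2 fold change was -0.37 (SE 0.24), and it was -0.61 (SE 0.19) without that mouse. Hgf and Mst1r were thus both highest in the same βCat-GOF library.

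Mst1, the ligand of RON, was barely detected, with 17 counts over the 6 Ctrl libraries and 14 over the 6 βCat-GOF libraries. No library held more than 6 counts, 8 of 12 held 3 or fewer, and 2 of the βCat-GOF libraries held 0. A count of 0 allows up to 3 counts, which is 0.117 to 0.222 CPM (gene counts scaled to a common library total) at these depths, counting error only. The pooled levels were 0.136 CPM in Ctrl and 0.116 CPM in βCat-GOF, and no difference was detectable at this depth. The gene was too low to enter the fit.

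**Figure D1:**
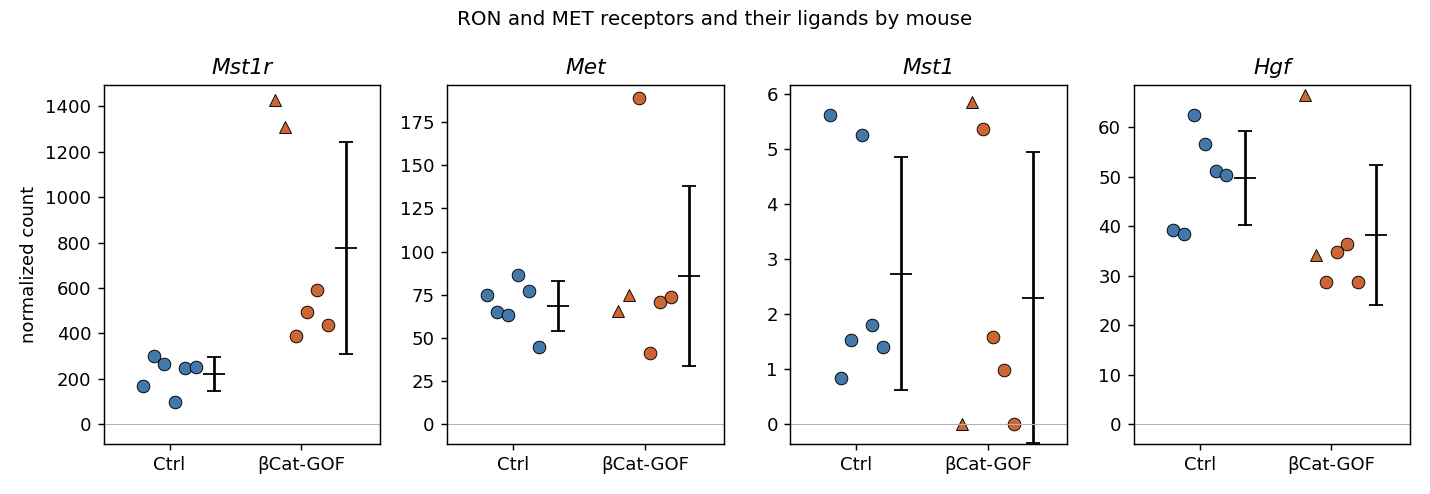
Normalized counts (y axes, linear and scaled separately) of Mst1r, Met, Mst1 and Hgf in each of 6 Ctrl (blue) and 6 βCat-GOF (orange) adrenals, with the group mean and SD in black at the right of each group; triangles mark the libraries 1369-2ear and 1369-2. For Mst1r all βCat-GOF points lie above all Ctrl points, for Met and Hgf a single βCat-GOF mouse stands far above the other 5, and no Mst1 point exceeds 6.

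A gene was called when its fold change exceeded 1.4, its adjusted p was under 0.05 and its mean normalized count exceeded 100. Of the 3 members that entered the fit, 1 (Mst1r) was past these cut-offs as higher, beside 222 of 14953 genes tested (1.48%), and 0 were past them as lower, beside 130 genes (0.869%). Every βCat-GOF mouse was above every Ctrl mouse for 1 of the 3, beside 241 of the 14953 genes (1.61%). Since Mst1r was selected on this comparison, nothing is read from these shares. Met and Hgf were below the mean count of 100 that a call needs.

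The order of the genes within Ctrl adrenals was tested between neighbours in the order of their Ctrl medians, so the pairs were set by the values that test them. Mst1r was selected on its higher level in βCat-GOF and the others were added without such a requirement. Its place above them may in part follow from that selection. Per kb of exon, Mst1r was the most abundant, at 44.4 ± 14.9 normalized counts (SD, n = 6), followed by Met at 8.93 ± 1.87, Hgf at 6.92 ± 1.32 and Mst1 at 1.21 ± 0.94. The level of Mst1r was above that of Met in 6 of 6 mice, 4.77-fold on average and between 1.78- and 8.67-fold in single mice (exact sign-flip permutation test of the log2 ratios, two-sided, p = 0.03125, adjusted over 3 pairs p = 0.046875). That p is the smallest that 6 mice can give. It counts the 6 Ctrl libraries as separate animals, and it could not be reached if labels that share a stem were 1 animal. Hgf was above Mst1 in 6 of 6 mice, with a mean log2 ratio of 2.85 (exact permutation test, p = 0.03125, adjusted p = 0.046875). Met and Hgf, the neighbours in the middle of the order, did not differ beyond their spread (mean log2 ratio 0.36, Met higher in 4 of 6 mice, exact permutation test, p = 0.125), and their order was reversed, to a log2 ratio of -0.52, when the longest transcript of each gene gave its length. In βCat-GOF the levels per kb were 155 ± 93.1 for Mst1r, 11.2 ± 6.77 for Met, 5.32 ± 1.98 for Hgf and 1.02 ± 1.17 for Mst1.

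Among 58 receptor tyrosine kinases, Mst1r ranked 26th by level per kb in Ctrl and 14th in βCat-GOF. Met ranked 42nd and 38th. The log2 fold change of Mst1r was the largest of the 54 receptors with a fit, and that of Met was the 9th. Since Mst1r was selected on this change, nothing is read from its rank. Without the pair 1369-2ear and 1369-2, Mst1r had 1.09 beside 1.03 for Fgfr4, named after its values were seen. Of the 52 receptors with a fit other than Mst1r and Met, 2 rose and 0 fell past the cut-offs. The median log2 fold change of the 52 was -0.10 beside 0.00 for all genes tested. Fgfr2, a fibroblast growth factor receptor, rose from 3978 ± 380 to 6763 ± 630 normalized counts (log2 fold change 0.76, SE 0.09, edgeR quasi-likelihood test with Benjamini-Hochberg adjustment, adjusted p = 0.000658). Ror2, a receptor for non-canonical Wnt ligands, rose from 128 ± 17.5 to 282 ± 104 (log2 fold change 1.14, SE 0.22, edgeR adjusted p = 0.0125). By edgeR 16 of the 52 (30.8%) had an unadjusted p under 0.05, beside 20.4% of all genes tested, and DESeq2 called 3 higher and 4 lower. The abundant receptors Fgfr1 (log2 fold change 0.13), Insr (0.03) and Kdr (-0.24), for fibroblast growth factors, insulin and vascular endothelial growth factor, were not past the cut-offs.

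**Figure D2:**
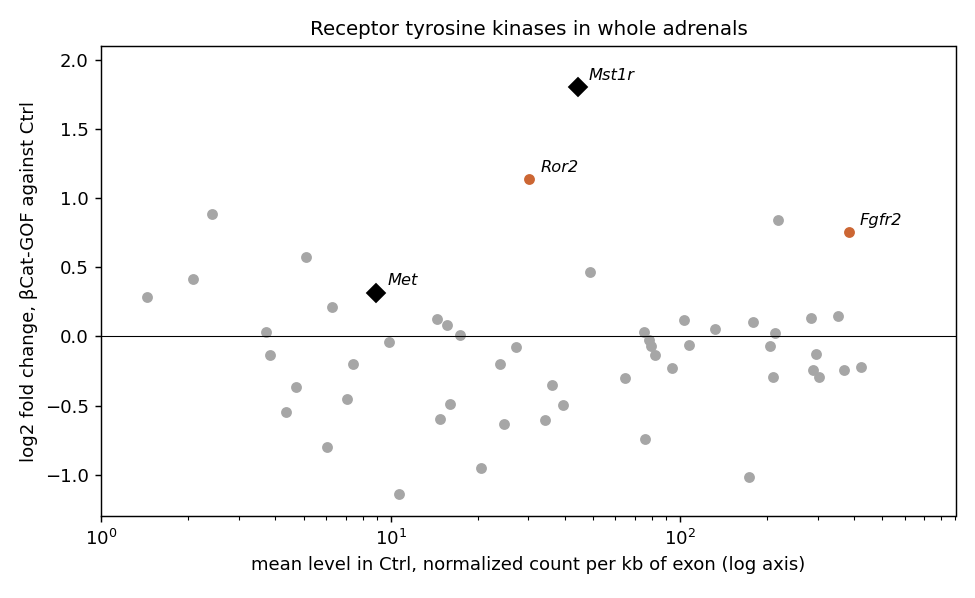
Log2 fold change in βCat-GOF against Ctrl (y axis) by mean Ctrl level in normalized counts per kb of exon (x axis, log scale) for the 54 receptor tyrosine kinases with a fit; black diamonds are Mst1r and Met, orange points are the other receptors past the cut-offs, grey points the rest. Mst1r, which was selected on this comparison, has the largest log2 fold change, 1.80, ahead of Ror2 at 1.14.

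Genes that work with RON and MET were read from the same fit, in which 3050 of the 14953 genes tested (20.4%) had an unadjusted p under 0.05. Of 15 proteases and inhibitors that govern the cutting of pro-HGF and pro-MSP, 7 entered the fit and 0 were past the cut-offs (median log2 fold change 0.07, 1 at an unadjusted p under 0.05 in edgeR, 0 called by DESeq2). The untested genes included the HGF activator Hgfac, hepsin (Hpn) and plasminogen (Plg). The 1 gene with an unadjusted p under 0.05 was St14, the membrane protease matriptase, at 26.9 ± 12.3 in Ctrl and 57.4 ± 25.2 in βCat-GOF (log2 fold change 1.08, edgeR adjusted p = 0.128), named after its values were seen. Plat, the tissue plasminogen activator, had a log2 fold change of 0.07, the urokinase gene Plau had -0.47, and the matriptase inhibitors Spint1 and Spint2 had -0.21 and 0.13. Without the pair 1369-2ear and 1369-2, Plau was called lower (log2 fold change -1.05, edgeR adjusted p = 0.0341).

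The 12 membrane partners, sheddases and binding proteins all entered the fit, and 0 were past the cut-offs (median log2 fold change 0.07, 3 at an unadjusted p under 0.05 in edgeR, 2 called by DESeq2). Cd44, whose variant forms serve as co-receptors of MET, ranged from 1029 to 1558 normalized counts in Ctrl and from 956 to 5456 in βCat-GOF. The libraries 1369-2ear and 1369-2, highest for Mst1r, held 1159 and 956 counts of Cd44, and the other 4 βCat-GOF mice held 2333 to 5456, all above Ctrl. Its log2 fold change was 1.10 (SE 0.34, edgeR adjusted p = 0.0911) in all mice and 1.49 (edgeR adjusted p = 0.00147) without that pair. Itga3, an integrin subunit, had an adjusted p of 0.0420 by edgeR at a log2 fold change of 0.42, under the fold cut-off, and its partner in the list Itga6, a subunit of the integrin that binds MET, had a log2 fold change of 0.61 (edgeR adjusted p = 0.125). Cd44, Itga3 and, in the lists that follow, Ptprj and Lgr5 were named after their values were seen. The sheddase inhibitor Timp3, the integrin subunit Itgb1, the co-receptor Nrp1 and the MET-binding proteoglycan decorin (Dcn) had log2 fold changes of 0.09, 0.04, 0.13 and -0.47.

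All 29 adaptors and transducers entered the fit and 0 were past the cut-offs (median log2 fold change 0.09, 5 at an unadjusted p under 0.05 in edgeR, or 17.2%, 0 called by DESeq2). Their log2 fold changes ran only from -0.19 to 0.36. Among the most abundant were the kinase Akt1 (-0.16), the exchange factor Dock1 (-0.01), the small GTPase Rac1 (0.08) and the phosphatase Ptpn11 (0.20). Of the 13 genes whose products limit the receptors, 0 were past the cut-offs (median log2 fold change 0.07, 2 at an unadjusted p under 0.05 in edgeR, 1, the receptor phosphatase Ptprj, called higher by DESeq2). The adaptors Grb10 and Cd2ap, the endosomal sorting protein Hgs, the phosphatase Ptpn1 and the feedback inhibitor Errfi1 had log2 fold changes of 0.11, -0.12, 0.15, 0.06 and 0.31. The 9 plexins, which share the extracellular Sema domain with RON and MET, had 0 genes past the cut-offs and a median log2 fold change of -0.13 (1 at an unadjusted p under 0.05 in edgeR, 0 called by DESeq2). Plxnb1, Plxnb2, Plxnd1, Plxna1 and Plxna3, the most abundant, had log2 fold changes of -0.13, -0.04, -0.09, -0.24 and -0.06.

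Of 10 Wnt feedback genes, 5 rose past the cut-offs and 0 fell (median log2 fold change 0.72, 9 at an unadjusted p under 0.05 in edgeR, 7 called higher and 1, Lgr5, lower by DESeq2). The secreted Wnt inhibitor Notum (2.08) had a log2 fold change above that of Mst1r, and the intracellular antagonist Nkd1 (1.81) had one level with it. Apcdd1 (1.45), Rnf43 (0.74) and Tcf7 (0.52) had smaller ones. The edgeR adjusted p-values of these 5 genes ran from 0.000658 to 0.0134. Axin2, the most used readout of β-catenin, had 710 ± 168 normalized counts in Ctrl and 1153 ± 343 in βCat-GOF (log2 fold change 0.70, edgeR adjusted p = 0.0739) and was not past the cut-offs by edgeR, while DESeq2 called it higher (adjusted p = 0.0138).

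**Figure D3:**
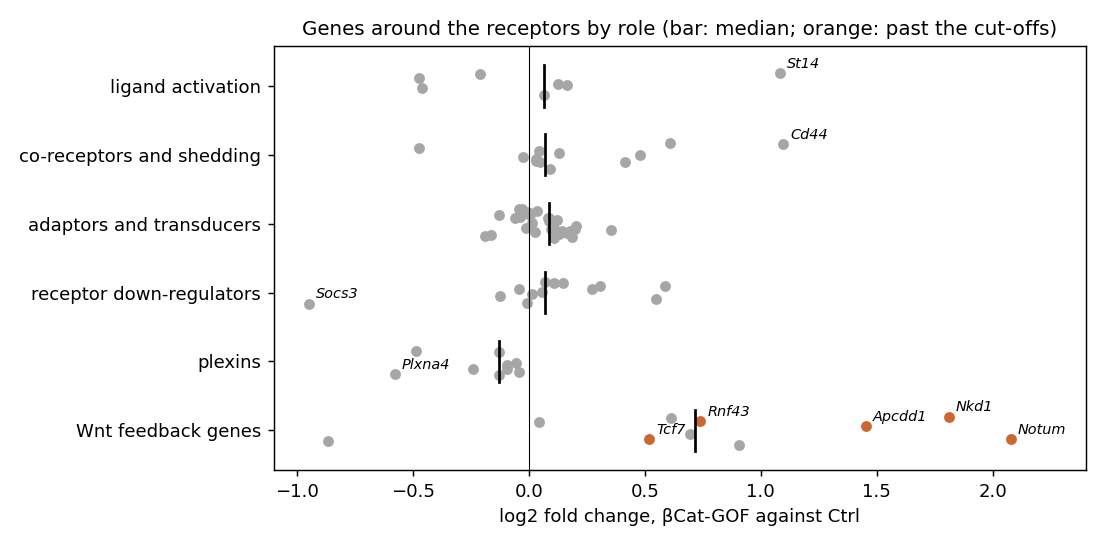
Log2 fold change in βCat-GOF against Ctrl (x axis) of each tested gene in 6 lists (rows); black bars are list medians, orange points are past the cut-offs, and vertical scatter within a row only separates points. Orange points appear in the Wnt feedback list alone, and St14 (1.08) and Cd44 (1.10) lie far to the right of their lists.

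The pair of βCat-GOF mice with the most Mst1r also had the most Axin2, at 1784 and 1230 normalized counts against 786 to 1091 in the other 4. The same pair had the highest sum of zG markers, 5704 and 5481 CPM beside 3487 to 4338 in the other βCat-GOF mice and 3193 to 3895 in Ctrl, and the lowest sum of zona fasciculata markers, 45967 and 53372 CPM beside 60450 to 83347 in the other 4. Such sums weigh the most abundant genes most, Kcnk3 in the zG list and Hsd3b1 in the zona fasciculata list. The part of these cell types in the level of Mst1r was not tested. Within βCat-GOF, Mst1r and Axin2 had a Pearson r of 0.89 (n = 6, exact permutation p = 0.00278, adjusted over 12 relations p = 0.0333) and a Spearman rho of 0.94 (exact permutation p = 0.0167, adjusted p = 0.133), so the correction was passed by r and not by rho. Without the pair, which were the 2 mice farthest from the median of Mst1r and share a label stem, r was 0.88 over the remaining 4 mice. The permutation counts the 6 libraries as separate animals, and its p could not be as small if the pair were 1. Within Ctrl, Mst1r and Axin2 had an r of 0.70 (n = 6, exact permutation p = 0.128, adjusted p = 0.307) and a rho of 0.54 (exact permutation p = 0.297, adjusted p = 0.446). Without the 2 Ctrl mice farthest from the median of Mst1r, r was 0.08, so the Ctrl relation rested on them.

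**Figure D4:**
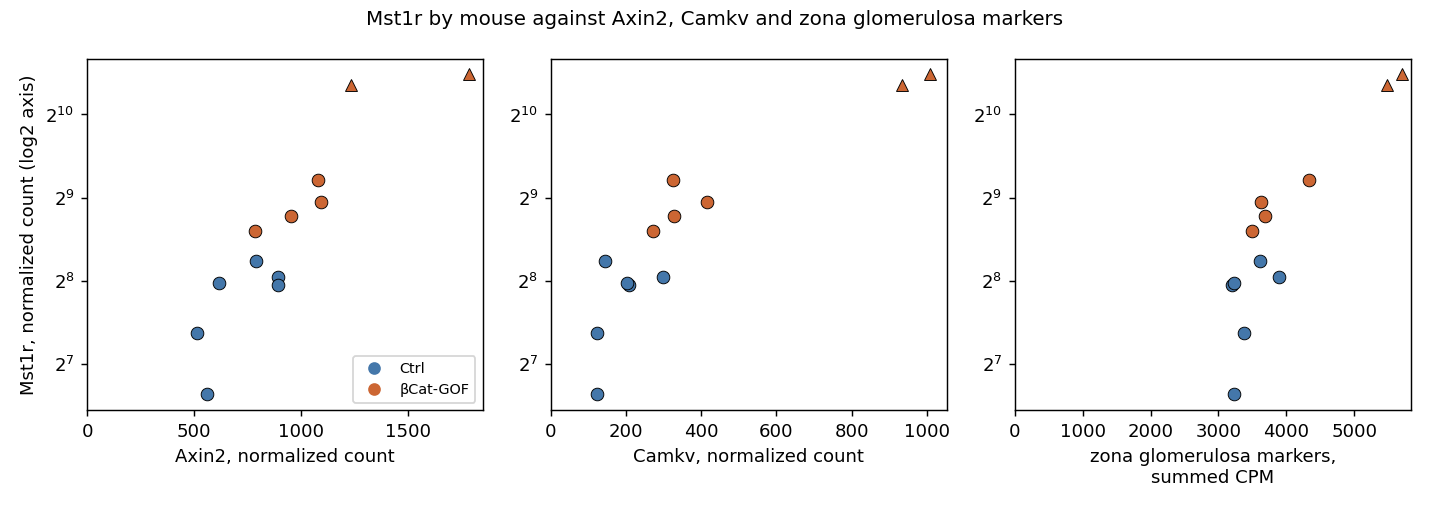
Mst1r in normalized counts (y axes, log2 scale) by mouse against Axin2 and Camkv in normalized counts and the summed CPM of 12 zG markers (x axes), for 6 Ctrl (blue) and 6 βCat-GOF (orange) adrenals; triangles mark 1369-2ear and 1369-2. In each panel the triangles sit at the upper right, with 1428 and 1309 counts of Mst1r.

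RON is also carried by macrophages, whose 12 markers summed to 512 to 927 CPM in Ctrl and 410 to 641 CPM in βCat-GOF. Of the 11 tested, 1, Adgre1, was called lower and 0 higher by edgeR (DESeq2 also called 1 lower and 0 higher), 7 had an unadjusted p under 0.05 in edgeR, and the median log2 fold change was -0.38. The library 1369-2, second highest for Mst1r, had the lowest sum. Within Ctrl, Mst1r and the macrophage markers had an r of -0.66 (n = 6, exact permutation p = 0.158, adjusted p = 0.317), a rho of -0.60 (exact permutation p = 0.242, adjusted p = 0.414) and an r of -0.59 without the 2 farthest mice. Within βCat-GOF the r was -0.50 (n = 6, exact permutation p = 0.286, adjusted p = 0.429) and the rho -0.43 (exact permutation p = 0.419, adjusted p = 0.503), with an r of -0.05 without the 2 farthest mice.

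Hgf was set beside the capsule and stroma markers, which stand for the mesenchymal cells known to make it. Their sums overlapped between the groups, at 558 to 966 CPM in Ctrl and 378 to 912 CPM in βCat-GOF, and 0 of 12 were past the cut-offs (1 at an unadjusted p under 0.05 in edgeR, 0 called by DESeq2). The βCat-GOF mouse highest for Hgf, 1369-2ear, was also highest for these markers, at 912 CPM, and 1369-4, among the lowest for Hgf, had the lowest sum. In Ctrl, Hgf and these markers had an r of 0.74 (n = 6, exact permutation p = 0.110, adjusted p = 0.307) and a rho of 0.77 (exact permutation p = 0.103, adjusted p = 0.247), with an r of 0.19 without the 2 farthest mice, so the Ctrl relation rested on them. In βCat-GOF, r was 0.74 (n = 6, exact permutation p = 0.0486, adjusted p = 0.194), rho was 0.89 (exact permutation p = 0.0333, adjusted p = 0.133), and r was 0.74 without the 2 farthest mice. Neither of these relations of Hgf passed the correction over 12 relations. The r of Mst1r with Axin2 in βCat-GOF alone passed it, with 6 libraries counted as separate animals. Its rho did not pass, and Axin2 was only 186th of 11430 genes by likeness to Mst1r over the 12 mice.

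No relation of a receptor with its ligand, or of the receptors with each other, passed that correction. In Ctrl, Met and Hgf had an r of 0.01 (n = 6, exact permutation p = 0.993, adjusted p = 0.993) and a rho of 0.14 (exact permutation p = 0.803, adjusted p = 0.876), with an r of -0.27 without the 2 farthest mice. In βCat-GOF, where 1 mouse stood apart in Met, they had an r of -0.33 (n = 6, exact permutation p = 0.357, adjusted p = 0.476) and a rho of -0.77 (exact permutation p = 0.103, adjusted p = 0.247), with an r of -0.79 without the 2 farthest mice. Mst1r and Mst1 in Ctrl had an r of -0.91 (n = 6, exact permutation p = 0.0125, adjusted p = 0.075) and a rho of -0.89 (exact permutation p = 0.0333, adjusted p = 0.133), with an r of -0.94 without the 2 farthest mice, but Mst1 ranged only from 1 to 6 counts there. In βCat-GOF the same pair of genes had an r of -0.03 (n = 6, exact permutation p = 0.953, adjusted p = 0.993) and a rho of -0.03, with an r of -0.46 without the 2 farthest mice. Mst1r and Met in Ctrl had an r of -0.60 (n = 6, exact permutation p = 0.210, adjusted p = 0.360) and a rho of -0.71 (exact permutation p = 0.136, adjusted p = 0.272), with an r of 0.15 without the 2 farthest mice, and in βCat-GOF an r of -0.28 (n = 6, exact permutation p = 0.608, adjusted p = 0.730) and a rho of -0.43, with an r of -0.66 without the 2 farthest mice.

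Liver transcripts stood out in 1 library, which bears on Mst1 because the liver is its main source. The βCat-GOF library 1369-8 held 760 counts of albumin (Alb) against 1 to 3 in the other 11, 88 of Apoa1 against 0 to 9, 17 of Fgb against 0 and 20 of the protease precursor Plg against 0 to 1. Of the 8 liver markers listed, Apoc3 and Cyp2e1 were not highest in 1369-8. Serpina1a had 20 counts in 1369-8 and 26 in 1369-4, a deeper library with 24951480 gene counts against 13484675. The summed level of the 8, mostly Cyp2e1, was 42.7 to 237 CPM in Ctrl and 44.5 to 315 CPM in βCat-GOF, highest in 1387-8 and 170 CPM in 1369-8. Without Cyp2e1 the sum was 72.4 CPM in 1369-8 and 0.312 to 4.53 CPM in the others. Mst1 had 1 count in 1369-8 and up to 6 elsewhere, and the part of liver RNA in its counts was not tested. Without 1369-8 the log2 fold change was 1.90 for Mst1r, 0.45 for Met and -0.35 for Hgf. Kidney markers were near 0 in all libraries, with sums of at most 1.22 CPM and Umod at 0 throughout.

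Of the remaining marker lists, zG had 4 of 12 genes called higher by edgeR and zona fasciculata 2 of 8, with 0 lower in both (8 and 3 at an unadjusted p under 0.05 in edgeR). DESeq2 called 8 zG markers and 2 zona fasciculata markers higher and 0 lower. Endothelial (8 tested), medullary (7) and adipocyte (6) markers had 0 past the cut-offs by edgeR or DESeq2, with 2, 2 and 1 at an unadjusted p under 0.05 in edgeR. Zona fasciculata markers summed to 57738 to 65929 CPM in Ctrl. Medullary sums were 3892 to 12365 CPM in Ctrl and 4782 to 9015 CPM in βCat-GOF, so medulla was present in every gland.

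Mst1r, Mst1 and the targeted Ctnnb1 share a chromosome and the background was mixed, so the neighbours of Mst1r were read beside it. Within 1 Mb of Mst1r or Mst1, 66 genes were tested, of which 2 rose and 1 fell past the cut-offs, 4.55% beside 2.13% of 844 genes on the whole chromosome and 2.35% of all genes. In edgeR, 12 of the 66 had an unadjusted p under 0.05, beside 166 of the 844 and 3050 of 14953 genes tested. The share past the cut-offs thus rests on few genes, and no enrichment is read from it. Between Mst1r and Ctnnb1, 3 of 124 genes rose and 1 fell (3.23%). Strain-derived sequence around the targeted allele was not tested.

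The nearest tested gene beyond Mst1r, Camkv, a kinase-like vesicle protein known mainly from neurons, starts 15.3 kb from its end on the same strand. Camkv ranged from 122 to 298 normalized counts in Ctrl (median 174) and from 273 to 1009 in βCat-GOF (median 372). In βCat-GOF, 5 of 6 mice lay above all Ctrl mice, and 1369-2ear with 1009 and 1369-2 with 934 were again the highest. The log2 fold change was 1.58 (SE 0.36, edgeR adjusted p = 0.0300), and it was 0.86 without that pair (edgeR adjusted p = 0.0420). When each mouse was omitted in turn, Camkv kept its call in 6 of 12 fits. The next gene, Traip, a ubiquitin ligase of DNA replication 29.8 kb away, had 54.1 ± 10.5 and 113 ± 53.2 normalized counts (log2 fold change 1.07, edgeR adjusted p = 0.0541) and was highest in the same pair, at 194 and 164.

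On the other side, Mon1a, which ends 3.73 kb before Mst1r, had a log2 fold change of -0.04 (SE 0.10). Impdh2, an enzyme of guanine nucleotide synthesis 640 kb away, rose (log2 fold change 0.75, edgeR adjusted p = 0.0156), and Bsn, a presynaptic scaffold gene 176 kb away, fell by 1.15 on the log2 scale (edgeR adjusted p = 0.0189). The genes on either side of Mst1, Amigo3 (1.07, edgeR adjusted p = 0.0524), Rnf123 (0.06) and Apeh (0.01), were not past the cut-offs. After removal of each group's mean, the values of Camkv and Traip over the 12 mice had a Pearson r with those of Mst1r of 0.87 and 0.86, against -0.02 for Mon1a and -0.34 for Impdh2. Other neighbours had as high or nearly as high an r without being called, among them Nicn1, 370 kb away (r = 0.94, log2 fold change -0.17), Uba7, the gene after Traip (0.85, log2 fold change -0.46), Rbm5 (0.78) and Ip6k2 (0.74), named after their values were seen. These describe mice among which 1 pair stands apart in Mst1r, Camkv and Traip.

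**Figure D5:**
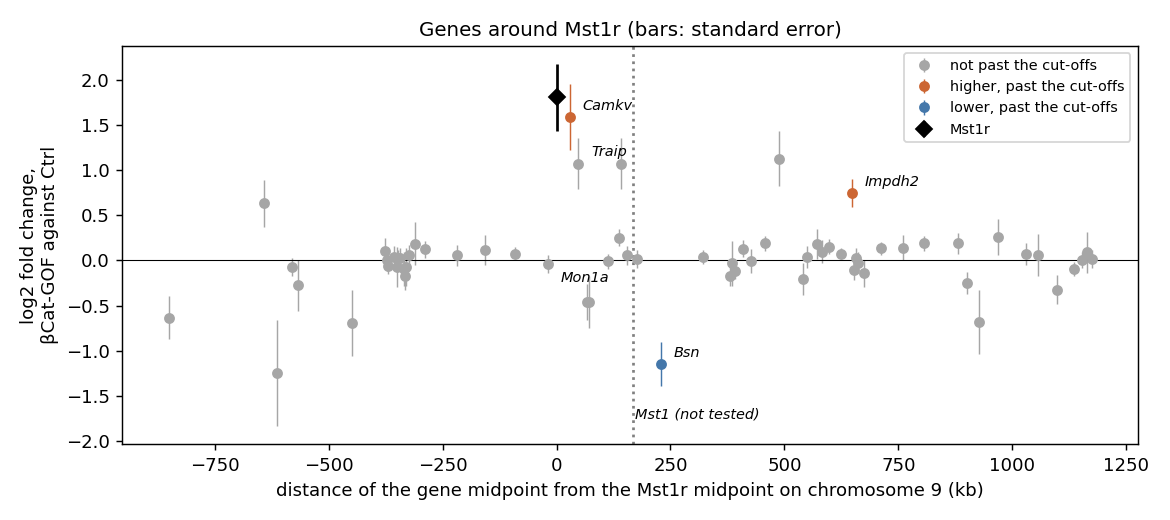
Log2 fold change in βCat-GOF against Ctrl with its standard error (y axis) for the 66 genes tested within 1 Mb of Mst1r or Mst1 on chromosome 9, by distance from the midpoint of Mst1r in kb (x axis); the black diamond is Mst1r, coloured points are past the cut-offs, and the dotted line marks Mst1. Camkv (1.58) and Traip (1.07) lie just beyond Mst1r, while most genes lie near 0.

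Genes with the pattern most like each member were found by the same deviations from group means over 12 mice, among genes with a mean normalized count above 100. For Mst1r these included Raver2 (r = 0.96), Stard8 (0.95), C430049B03Rik (0.94) and Hspa12b (0.94), and of these Stard8 alone was past the cut-offs, as higher, with a log2 fold change of 0.65. Axin2 was 186th in this order of 11430 genes, with an r of 0.82. For Met the nearest were Gm15564 (0.92), Tfrc (0.90), Aldh6a1 (0.88), Cox11 (0.88) and Lars2 (0.87), and for Hgf they were Coprs (0.94), Plce1 (0.90), H2afv (0.90), Pcnxl4 (0.89) and Tgfb3 (0.89). For Mst1r the pair 1369-2ear and 1369-2, for Met the mouse 1369-4 and for Hgf the mouse 1369-2ear weigh heavily in these values, which are a description with no test.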

How the data were processed

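Whole-adrenal RNA from 12 mice was sequenced by the authors. As the study describes, reads were aligned to mm10 with STAR and counted per gene with featureCounts 1.4.4. The deposited table of raw counts per gene was the basis of every test, and the deposited normalized counts, a signal that the authors scaled with DESeq2 1.6.3, gave gene names and an alternative scaling. The strand setting of the counting and the annotation release are not given in the sources used here. The deposited tables held no columns of comparisons.

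Groups were taken from the labels. Normalized counts printed here are counts divided by DESeq2 size factors computed from the deposited counts. βCat-GOF was compared with Ctrl over all genes with edgeR 4.0.16 in R 4.3.3 (quasi-likelihood test, TMM scaling, filterByExpr, Benjamini-Hochberg adjustment), with the cut-offs of the study (fold above 1.4, adjusted p under 0.05, mean normalized count above 100). DESeq2 1.42.0 was an alternative, as were other filters, scalings, cut-offs and left-out mice. Exact permutation tests used Python 3.11.15. In a test on simulated data for βCat-GOF against Ctrl, with 200 of 14821 genes changed, edgeR recovered 181 with 6 false calls. DESeq2 recovered 183 with 19 false calls. The changed genes all had a mean above 100 and changes well above the fold cut-off. Smaller changes, and mice that stand apart from their group, were not simulated. Sequence copies were sought with blastn 2.17.0, and positions are from GENCODE M21 on GRCm38.

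The members and the gene lists (pathway lists and markers of macrophages, stroma, endothelium, zona glomerulosa, zona fasciculata, medulla, adipocytes, kidney and liver) were chosen with earlier results of these data known. In each list up to 5 genes were named, those past the cut-offs first and then the most abundant, along with neighbours past the cut-offs, the nearest tested genes, and the 5 genes most like each member. A few genes that this rule names are not reported here. Depth limits Mst1, at 6 counts or fewer per library.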

Additional observations from a re-analysis of the deposited data

Results flagged for a closer look

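Within groups of 6 mice, a mouse was noted when its gap to the nearest other, divided by the range of the group, was above 0.625. Chance alone notes about 1 in 20 groups, and 3 of 28 groups were noted. Met in the βCat-GOF mouse 1369-4 was 189 normalized counts, with the next mouse at 75.1. Hgf in the βCat-GOF mouse 1369-2ear was 66.5 normalized counts, with the next at 36.5. Ctnnb1 in the βCat-GOF mouse 1387-8, the lowest of its group and the only mouse of its label family, was 19229 normalized counts, with the next at 21310.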

How the results depend on the processing

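The log2 fold change of Hgf stayed negative in every alternative. That of Mst1r stayed positive, which the lack of overlap between the groups largely fixes in advance. Leaving out 1 mouse at a time gave 1.54 to 1.93 for Mst1r, -0.08 to 0.45 for Met (the negative without 1369-4) and -0.61 to -0.29 for Hgf, with 146 to 340 genes called higher and 61 to 223 lower, 0 to 1 co-receptors, 0 to 1 down-regulators, 2 to 5 other receptor kinases, 4 to 6 Wnt feedback genes and 2 to 3 neighbours. For all genes called, the low ends were reached without the Ctrl mouse 1367-10 and the high ends without 1369-2ear, and lower calls numbered 80 without 1387-8 and 63 without 1369-3. Log2 level ratios in Ctrl ran from 2.08 to 2.54 for Mst1r over Met, 0.27 to 0.49 for Met over Hgf and 2.65 to 3.20 for Hgf over Mst1, where 5 mice cannot reach the threshold. With longest-transcript lengths Met over Hgf was reversed to -0.52.

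DESeq2 called 361 genes higher and 280 lower, with 2 co-receptors (Cd44, Itga6), 1 down-regulator, 7 receptor kinases and 8 Wnt feedback genes. Without 1369-2ear and 1369-2, 440 were higher and 470 lower, with 1 protease gene (Plau), 1 co-receptor (Cd44), 1 plexin (Plxna4), 7 receptor kinases and 6 neighbours. Without all mice whose label repeats a stem, 228 were lower, with 5 receptor kinases. An adjusted p under 0.05 alone gave 228 lower and 1 co-receptor, and one under 0.01 gave 90 higher, 31 lower, 1 receptor kinase, 3 Wnt feedback genes and 0 neighbours, fewer by construction. For the other changes the cause was not tested. Numbers in the labels were not replicate numbers shared between genotypes. No paired analysis was possible because the groups share no numbers.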
